A study of Mus musculus with 38 samples.

Results

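The Hist1 cluster is the largest group of histone genes in the mouse genome. Its members were taken as the protein-coding genes of the GENCODE vM21 annotation (build GRCm38) on chromosome 13 whose symbol starts with Hist1h, which gave 54 of the 21938 protein-coding genes. Of these, 6 encode linker histone H1, 13 encode H2A, 15 encode H2B, 9 encode H3 and 11 encode H4. Hist1h1t, Hist1h2aa and Hist1h2ba, genes known for their use in testis, were kept apart from the 51 others, which were taken as replication-dependent. The genes were chosen by name and position only, and no measured value entered the choice.

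The marks were read by ChIP-seq, the sequencing of DNA pulled down with an antibody against a mark, in mouse embryonic stem cells (mESCs) of the ES-E14TG2a line, either IκBα-WT or IκBα-KO, grown in serum with leukaemia inhibitory factor (LIF) and taken at 0 h. KO cells carried CRISPR-Cas9 lesions in Nfkbia, the gene of the NF-κB inhibitor IκBα, and WT cells had received a non-targeting guide. For each of H3K4me3, H3K27ac, H3K4me1, H3K27me3 and H3K9me3 there were 3 WT and 3 KO libraries, numbered here WT1 to WT3 and KO1 to KO3, which the study describes as separate clones. RNA was not measured in these 30 libraries, so the values below are of chromatin marks and not of expression.

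Replication-dependent histone genes are short, mostly lack introns, and give mRNAs that end in a stem-loop in place of a poly(A) tail. They are transcribed in S phase, when new DNA has to be packed, from a nuclear structure called the histone locus body, where the factor NPAT gathers. Histones H2A, H2B, H3 and H4 form the nucleosome core, and H1 binds the linker DNA between nucleosomes. H3K4me3 is found at active promoters, H3K27ac at active promoters and enhancers, H3K4me1 around enhancers, H3K27me3 at Polycomb-repressed genes and H3K9me3 in heterochromatin.

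Chaining replication-dependent genes that lay less than 50 kb apart gave 4 clusters, each extended by 1 kb at both ends. Cluster A (chr13:21714763-21838530, 123.768 kb) held 18 genes and cluster B (chr13:22034164-22044676, 10.513 kb) held 5. Cluster C (chr13:23530050-23623558, 93.509 kb) held 16, and cluster D (chr13:23680467-23765406, 84.94 kb) held 13, with Hist1h1t among them. The gap between B and C spanned 1485.37 kb and held 40 other protein-coding genes, of which 36 were vomeronasal receptor genes (Vmn1r). The gap between A and B spanned 195.633 kb and held Zfp184, Pom121l2 and Prss16, and the 56.908 kb between C and D held no protein-coding gene. Hist1h2ba and Hist1h2aa lay outside the clusters, beyond D. Among all members were 12 divergent pairs, 11 of them an H2A gene and an H2B gene whose annotated 5′ ends were 176 to 306 bp apart.

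Promoter sequences are shown for the genes with the highest and the lowest H3K4me3 enrichment among the 16 members with a peak in all 6 libraries, and for a divergent H2A/H2B pair whose peak was called in KO libraries and in no WT library. They are the 150 bases before the RefSeq start on GRCm38.p6, written 5′ to 3′ on the strand of the gene, with capitals for the 4 motifs searched. These were the TATA box as TATAAA, the CCAAT box as its letters CCAAT, the octamer as ATTTGCAT and the H1 box as AAACACA, each as exact letters on either strand, and matches that overlap were kept. The Hist1h4h promoter is chr13:23530894-23531043 on the plus strand, that of Hist1h2be is chr13:23585971-23586120 on the minus strand, and that of Hist1h2bg, which runs through the space it shares with Hist1h2ae, is chr13:23571250-23571399 on the plus strand.
Hist1h4h: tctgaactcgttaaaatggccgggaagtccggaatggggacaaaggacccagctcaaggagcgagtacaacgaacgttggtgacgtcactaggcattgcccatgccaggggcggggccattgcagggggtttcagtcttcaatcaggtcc
Hist1h2be: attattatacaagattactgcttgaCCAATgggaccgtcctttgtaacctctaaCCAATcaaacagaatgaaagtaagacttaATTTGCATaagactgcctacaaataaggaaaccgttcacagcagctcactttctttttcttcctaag
Hist1h2bg: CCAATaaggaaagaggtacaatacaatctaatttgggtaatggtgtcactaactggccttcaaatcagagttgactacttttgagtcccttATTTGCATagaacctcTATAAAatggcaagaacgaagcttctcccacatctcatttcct

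The Hist1h4h promoter held none of the 4 motifs, also in the longer window of 250 bases before and 50 after the start. Hist1h2be had CCAAT at −125 and −96 and the octamer at −67. Hist1h2bg had CCAAT at −150, the octamer at −59 and the TATA box at −43. Positions are of the first base of the motif, counted back from the start. RefSeq promoters were matched for 51 of the 54 members, with 52 entries, since Hist1h2be had 2. In the longer window, CCAAT was in 44 of 52 entries (84.6%, against 37.4% of all 32851 promoters), the TATA box in 31 (59.6% against 13.6%), the octamer in 11 (21.2% against 1.74%) and the H1 box in 9 (17.3% against 7.18%). CCAAT was in every matched H1, H2A, H2B and H3 entry and in 3 of 11 H4 promoters. The octamer was in 5 of 13 H2A and 6 of 15 H2B entries and in no H1, H3 or H4 promoter, and the H1 box was in 5 of 6 H1 promoters. These are letter matches, and the binding of a factor was not measured.

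Hist1h genes resemble each other closely, and the authors had discarded reads that mapped to several places. The share of 50-base words, the read length, that occur once in the genome was therefore computed for each gene. The median was 54.2% over the gene bodies and 83.8% over the windows used here, which are the gene body with 1 kb on either side. Cluster A was 64.9% unique by this measure, B 85.8%, C 90.5% and D 94.5%. The cells carried the marks of their type: 5 of 5 stem cell marker genes (Pou5f1, Nanog, Sox2, Zfp42 and Esrrb) had H3K4me3 and H3K27ac calls in all 6 libraries, and 5 of 5 silenced lineage genes (Gata6, Pax6, Sox17, T and Hoxa9) had H3K27me3 calls in all 6. H3K4me3 lists held 21836 to 23638 peaks in the WT and 23736 to 26806 in the KO, and hold no read counts. Reads in called regions per library numbered 34736939 to 35951506 in the H3K4me1 lists and 22943091 to 28339766 in those of H3K27ac. The H3K27me3 lists held fewer, 8910890 to 10938375, and the H3K9me3 lists 8548342 to 12105343.

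The Hist1h genes carried active marks and few repressive ones. H3K27ac was called in all 6 libraries over 42 of the 54 windows (77.8%, against 63.9% of all genes), and 33 of the windows lay wholly inside H3K27ac calls in every library. H3K4me1 was called in all 6 over 44 windows (81.5%, against 74.2% of all genes). H3K4me3, the promoter mark, was called in all 6 libraries over only 16 windows (29.6%, against 59.3% of all genes). H3K27me3 and H3K9me3 were each called in all 6 over 2 windows (3.70%, against 38.1% and 21.7% of all genes), and in no library over 49 and 48 (47.6% and 54.4% of all genes). Calls in no library were seen at 13 windows for H3K4me3, 12 for H3K27ac and 10 for H3K4me1, against 33.0%, 26.2% and 21.5% of all genes.

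**Figure D1:**
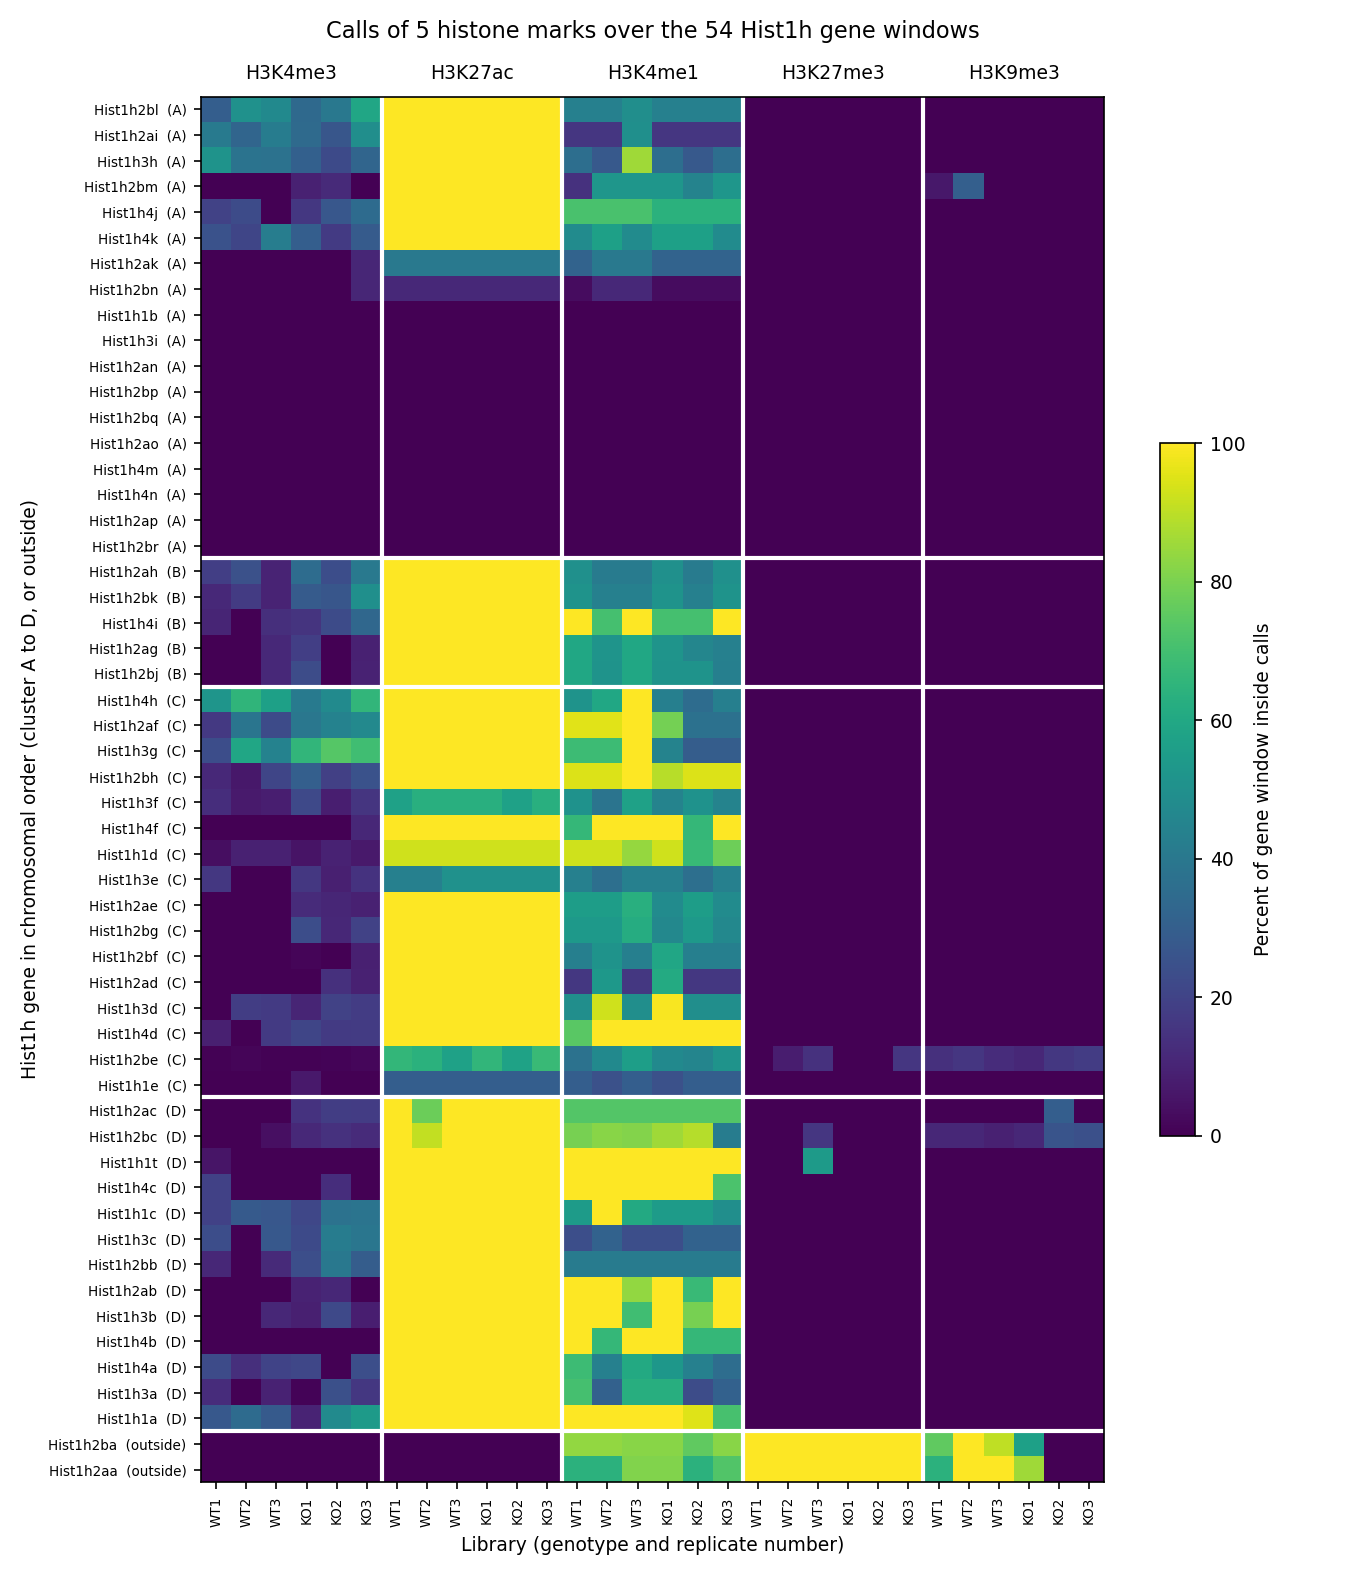
Percent of each Hist1h gene window (gene body with 1 kb on either side) inside calls, for the 54 genes in chromosomal order (rows) and the 6 libraries of each of the 5 marks (columns, WT1 to WT3 and KO1 to KO3), with colour from 0 to 100%. H3K27ac and H3K4me1 fill most windows in every library, H3K4me3 fills a small part of them, and the last 10 genes of cluster A are empty for all marks.

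The 10 genes at the distal end of cluster A had no call of any mark in any of the 30 lists. They were Hist1h1b, Hist1h3i, Hist1h2an, Hist1h2bp, Hist1h2bq, Hist1h2ao, Hist1h4m, Hist1h4n, Hist1h2ap and Hist1h2br, which encode histones of all 5 classes. They lay in 75.73 kb without a call (chr13:21762801-21838530), while the next longest uncalled stretch of the clusters was 7.4 kb. The sequence from Hist1h2bq to Hist1h2br, which holds 6 of the genes, was 31.0% unique, and Hist1h2bq and Hist1h2br had no unique word at all in their windows. Uniqueness was not low throughout, since the 11.331 kb around Hist1h1b, Hist1h3i, Hist1h2an and Hist1h2bp were 92.0% unique and the window of Hist1h1b was 100% unique. The H3K27ac call before the stretch ended at the same base (21753400) in 6 of 6 lists. Whether these genes lack the marks or the reads were removed in processing cannot be told apart from the lists. The calls in cluster A described below are those of its other 8 genes. The covered shares of cluster A and of the pooled clusters keep the uncalled stretch in their length, which lowers them by the same factor in every library. It also lowers them against the shares of the gaps.

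H3K4me3 peaks at Hist1h genes were low and narrow. The highest fold enrichment over input in each of the 16 windows called in all 6 libraries averaged from 4.63 to 7.79, with a median of 6.38, while the median of all 13002 such windows was 11.3. Among these windows the members ranged from percentile 0.392 to percentile 16.4, with a median of 6.41. Hist1h4h, an H4 gene, was highest, at 6.70, 5.77 and 7.22 in the WT and 8.21, 9.49 and 9.37 in the KO. Hist1h1c, a linker histone gene, followed with a mean of 7.41, and the divergent pair Hist1h2ah and Hist1h2bk, which share a peak, with 6.81. The lowest were Hist1h2be at 4.63, Hist1h3h at 5.57 and Hist1h1a at 5.69. The annotated body of Hist1h2be spans 37455 bp and has 2 RefSeq starts. In 5 libraries a peak lay just downstream of the printed promoter, whereas the only peak of KO1 lay at the distant start, where the window meets Hist1h1e.

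Around the annotated 5′ ends, H3K4me3 calls over the 51 replication-dependent genes, the 10 uncalled ones included, had 2 shoulders and a trough. They were most frequent 500 to 600 bp downstream, which for genes this short is at or past the end of the body, at 27.3% ± 8.32 of bases in WT and 41.1% ± 7.00 in KO libraries (SD, n = 3 each), against 44.5% for all genes. Between 0 and 300 bp they covered 3.56% to 4.37% in the WT and 4.42% to 6.18% in the KO, where all genes had 45.4% to 50.4%. Unique 50-base words fell from 66.8% to 21.5% over these 300 bp. In the 300 bp before the 5′ end, 84.2% to 88.4% of words were unique, and H3K4me3 calls covered 3.57% to 5.37% in the WT and 6.93% to 10.8% in the KO, against 28.3% to 34.1% for all genes. The shoulder upstream was highest 700 to 800 bp before the 5′ end, at 12.7% ± 3.39 in WT and 25.4% ± 3.37 in KO libraries (SD, n = 3 each). H3K4me1 calls also dipped there, from 61.9% in the WT and 57.5% in the KO at 1000 to 900 bp upstream. They fell to 23.5% and 16.3% at 200 to 300 bp downstream, and reached 71.7% and 70.5% at 1900 to 2000 bp. H3K27ac had no such trough, and covered 69.3% to 78.4% of bases in every bin. Its called regions over Hist1h genes spanned 3.2 to 64.2 kb, and a dip of 300 bp need not show in calls this wide.

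**Figure D2:**
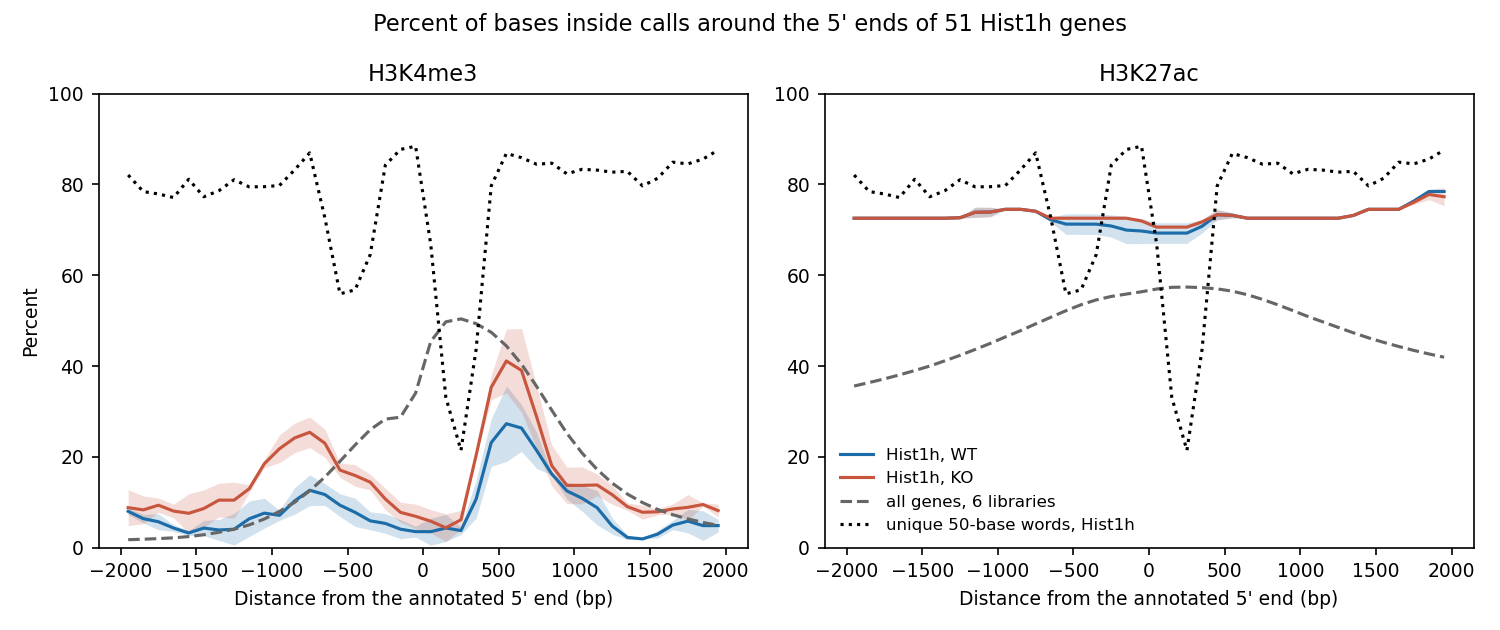
Percent of bases inside H3K4me3 (left) and H3K27ac (right) calls in bins of 100 bp from 2000 bp before to 2000 bp after the annotated 5′ ends of 51 replication-dependent Hist1h genes, as the mean of 3 WT and of 3 KO libraries with a band of 1 SD. The dashed line is all protein-coding genes over 6 libraries and the dotted line the percent of 50-base words that are unique. H3K4me3 calls peak 500 to 600 bp downstream and dip between 0 and 300 bp, while H3K27ac calls stay between 69.3% and 78.4%.

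H3K4me3 calls covered more of the pooled histone clusters, and less of the pooled gaps between them, in every KO library than in any WT library. The 4 clusters were covered at 3.50%, 3.62% and 4.14% in the WT and 4.88%, 5.87% and 6.65% in the KO. The difference of the means was 2.05 percentage points (two-sided exact permutation p = 0.1, the smallest that 3 against 3 libraries can give). The gaps were covered at 2.58%, 2.49% and 2.57% in the WT and 1.77%, 2.11% and 2.37% in the KO (exact permutation p = 0.1). Pooled, the clusters lay above the gaps in 6 of 6 libraries, by a mean of 2.46 points (SD 1.44, two-sided exact sign-flip permutation p = 0.031, the smallest that 6 libraries can give). That margin was itself 2.51 points wider in the KO (exact permutation p = 0.1). The gaps differed among themselves, and the pooled gap is for the most part the long one between B and C, which was covered at 1.65% to 1.79% in the WT and 1.09% to 1.62% in the KO. The gap between A and B was covered at 9.36% to 9.54% in the WT, above each of the 4 clusters, and at 7.44% to 8.78% in the KO. The gap between C and D held no peak in any library. Both gaps with peaks were lower in every KO library (exact permutation p = 0.1 for each). Peaks per library in the clusters numbered 22 to 29 in the WT and 35 to 45 in the KO, and in the gaps 71 to 72 and 55 to 70. Other marks also covered less of the pooled gaps in every KO library. H3K27ac calls covered 15.5% to 17.0% of the gaps in the WT and 13.5% to 15.3% in the KO, and H3K4me1 calls 19.0% to 20.1% and 17.5% to 18.0% (exact permutation p = 0.1 for each). For both marks this held in the gap between B and C, while in the gap between A and B the libraries overlapped.

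KO libraries held more H3K4me3 peaks in all, so the comparison was repeated with the 21836 peaks of smallest q-value in each library. Clusters were then covered at 3.51% ± 0.388 in the WT and 4.68% ± 0.254 in the KO, and gaps at 2.47% ± 0.0592 and 1.89% ± 0.208 (SD, n = 3 each). Scaling every library to the same total of covered bases gave 4.02% ± 0.220 and 5.41% ± 0.428 for the clusters and 2.74% ± 0.116 and 1.94% ± 0.137 for the gaps (SD, n = 3 each). The genotypes did not overlap under either.

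The libraries of the 2 genotypes parted in clusters B, C and D. Cluster B was covered at 6.91%, 5.65% and 7.81% in the WT and 17.1%, 14.0% and 23.1% in the KO. Cluster C was covered at 4.31%, 5.92% and 6.09% in the WT and 7.50%, 8.00% and 8.86% in the KO. In cluster D the values were 3.76%, 2.72% and 4.39% against 4.41%, 7.73% and 7.52%, with KO1 just above the highest WT library (exact permutation p = 0.1 for each of B, C and D). Cluster A was at 2.31% ± 0.125 and 2.49% ± 0.430 (SD, n = 3 each), and its libraries overlapped (exact permutation p = 0.8). By class, the windows of H2A, H2B and H3 genes were covered more in every KO library than in any WT library, H2B from 2.11% to 3.81% in the WT and 6.36% to 8.26% in the KO. The H1 and H4 windows overlapped, with H4 at 10.8% to 14.4% in the WT and 13.2% to 19.7% in the KO.

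**Figure D3:**
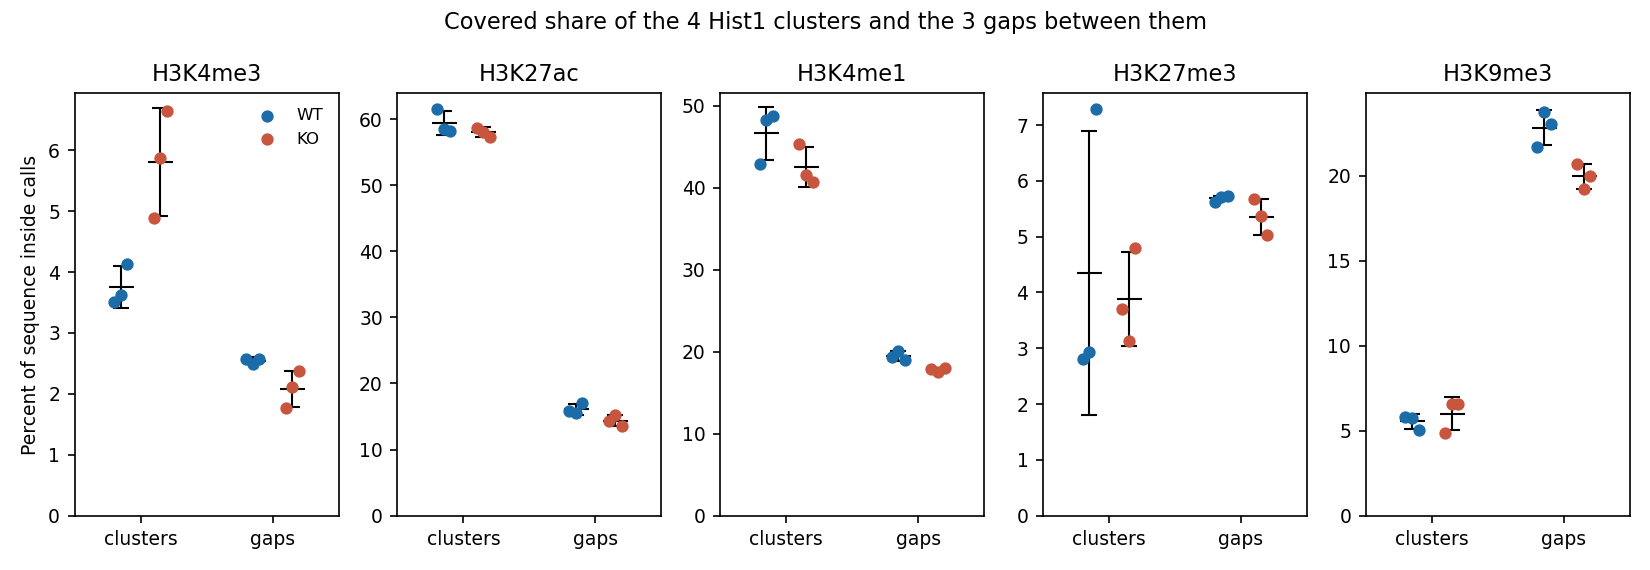
Percent of sequence inside calls in the 4 Hist1 clusters and the 3 gaps between them. Each of the 5 marks has a panel and axis, with points for the 3 WT and 3 KO libraries and bars for the mean with SD. The clusters keep the uncalled stretch of cluster A in their length. Pooled over 4 clusters and 3 gaps, H3K27ac, H3K4me1 and H3K4me3 were higher in the clusters and H3K9me3 in the gaps, and the H3K4me3 genotypes part in opposite directions, although single gaps and clusters go against the pooled values as described in the text.

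At 3 members a peak was called in all 3 KO libraries and in no WT library. That is 7.32% of the 41 members with a call in any library, against 0.429% of the 14694 such windows of all genes. Of the 14694, 13002 had a peak in all 6 libraries, and the background was not matched for peak strength. Hist1h2ae and Hist1h2bg, an H2A and an H2B gene that face away from each other, had shared peaks, which covered 0, 0 and 0 bp of the Hist1h2bg window in the WT and 621, 295 and 514 bp in the KO. In the Hist1h2ae window the KO values were 330, 295 and 249 bp. The peak of KO2 (chr13:23570991-23571285) reached into the printed promoter, and the nearest peaks of KO1 and KO3 began 351 and 482 bp past the annotated 5′ end of Hist1h2bg. Hist1h2ac, an H2A gene of cluster D, had 0, 0 and 0 bp in the WT and 656, 811 and 793 bp in the KO. Its divergent partner Hist1h2bc had 0, 0 and 457 bp in the WT and 1247, 1531 and 1324 bp in the KO, the longest KO coverage among the genes of these pairs. These peaks were weak. The highest fold enrichment per KO library was 3.77 to 5.91 in the Hist1h2ae window and 5.42 to 7.03 in that of Hist1h2ac. The highest peaks of the Hist1h2ac window began 360 to 384 bp past the 5′ end of Hist1h2bc, and those that began 383 to 556 bp past the 5′ end of Hist1h2ac itself had fold enrichments of 4.29 to 5.43. The call at Hist1h2ae and Hist1h2bg depended on the 1 kb flanks. Over the gene body alone Hist1h2ae was called in 1 KO library and Hist1h2bg in 2, with KO minus WT differences of 76.7 and 134 bp, and Hist1h2ac in all 3. At equal numbers of peaks Hist1h2ac kept its calls in 3 KO and 0 WT libraries and Hist1h2bc came to the same, while Hist1h2ae and Hist1h2bg were called in 2 KO libraries. No member was called in 3 WT and 0 KO libraries (0.408% of all genes were).

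Counting any number of libraries, 11 of the 41 members had calls in KO libraries alone (26.8%, against 2.53% of all genes) and 1 in WT libraries alone (2.44%, against 2.12%). The latter was Hist1h1t, with 165 bp in WT1. The comparison for any number of libraries was added after the values were seen. It was not repeated at equal numbers of peaks, although the KO lists held more, and its background was not matched for peak strength either. Hist1h2ae and Hist1h2bg, which are among the 11, share peaks, so the 11 are not separate measurements. Covered length lay higher in all KO than in all WT libraries at 9 of 41 members (22.0%), a share near the background of 22.9%. They were Hist1h2bk, Hist1h4i, Hist1h2af, Hist1h3g, Hist1h2ae, Hist1h2bg, Hist1h2ac, Hist1h2bc and Hist1h2bb, from clusters B, C and D. Covered length lay lower in all KO libraries at 1 member (2.44%, against 7.29%), Hist1h3h of cluster A, with 1241, 918 and 907 bp in the WT and 742, 541 and 786 bp in the KO.

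**Figure D4:**
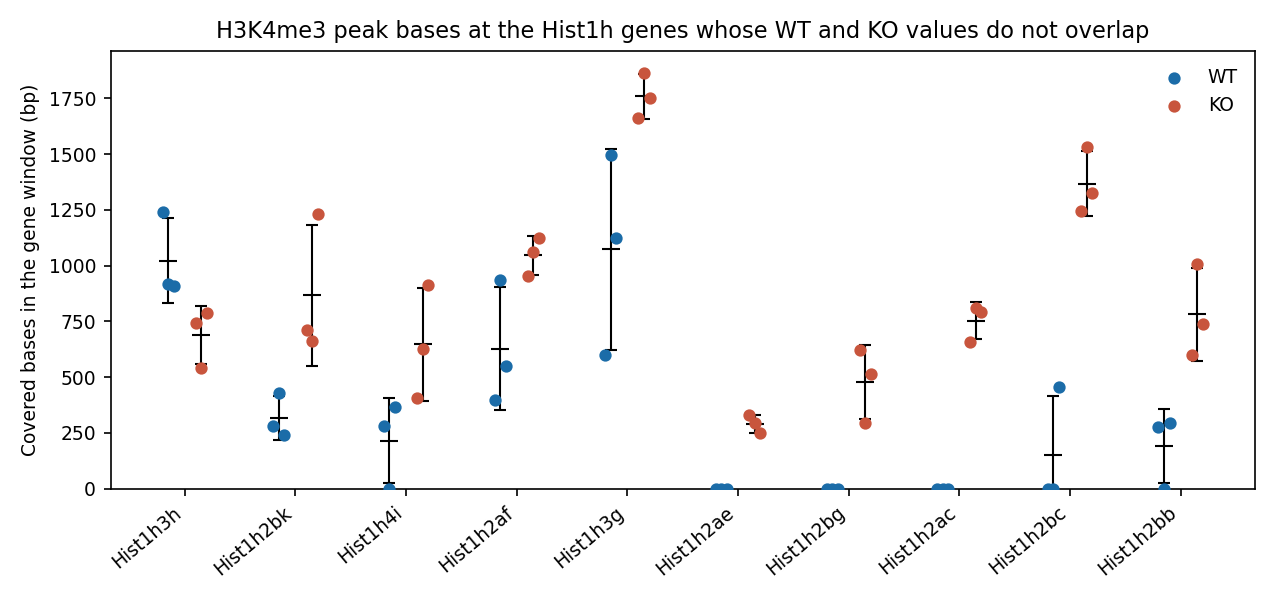
Bases of each gene window inside H3K4me3 peaks (bp) for the Hist1h genes whose 3 WT and 3 KO libraries do not overlap, with a point per library and bars for the mean with SD. In 9 genes the KO is higher, with Hist1h2ae, Hist1h2bg and Hist1h2ac at 0 bp in every WT library, and in Hist1h3h it is lower.

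The strength of the peaks called in all 6 libraries gave no call between the genotypes. With limma on log2 of the highest fold enrichment per window, 0 of 16 members had a Benjamini-Hochberg adjusted p under 0.05 over the 13002 windows tested, of which 21.0% passed. Unadjusted p-values under 0.05 were found at 4551 of the 13002 windows and at 1 of the 16 members. That was Hist1h2af, an H2A gene, at 4.67, 4.69 and 5.83 in the WT and 7.21, 7.72 and 7.70 in the KO (log2 fold change 0.49 ± 0.21 SE, adjusted p = 0.0938). Its 2 groups did not overlap. Fold enrichment lay higher in all KO libraries at 8 of 16 members (50.0%, against 20.4% of all windows) and lower at 2 (12.5%, against 13.4%), the divergent pair Hist1h2bl and Hist1h2ai. Several of the 8 share a peak with a neighbour, so they are not 8 separate measurements. Where fold enrichment was multiplied by covered bases, limma called 3 members higher and 1 lower (12.4% and 12.1% of all windows were). Windows called in any library were also taken, with 1 added before the logarithm. That gave 4 higher and 0 lower (7.71% and 7.08% of all windows), namely Hist1h2ae, Hist1h2bg, Hist1h2ac and Hist1h2bc. A missing call enters that fit as a fold enrichment of 0. These genes had no WT call, or for Hist1h2bc a call in WT3 alone. The fit thus repeats the calls given above and is not a separate measure of strength.

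H3K27ac was dense over clusters B, C and D. Calls covered 57.3% to 61.5% of the cluster sequence and 13.5% to 17.0% of the gaps, a margin of 43.5 points (SD 1.53, 6 of 6 libraries, exact sign-flip permutation p = 0.031). The margin came from the gaps between B and C (8.36% to 11.9%) and between C and D (0.116% to 8.55%). The gap between A and B was covered at 55.6% to 63.6%. Cluster A was at 24.6% to 29.9%, but 75.73 kb of its 123.768 kb are the stretch without a call of any mark. That stretch also lowers the share of the pooled clusters, so neither share ranks the clusters against this gap. Cluster B was covered at 100%, C at 77.6% to 82.1% and D at 72.2% to 81.2%. Read density was taken as ChIP reads per kb of called sequence, divided by that of all calls of the same library, so that 1 is the average call. Over the 42 windows called in all 6 libraries its median was 1.83, against 0.947 over the 14014 such windows of all genes, and the median member stood at percentile 98.0. The epic2 caller gives 1 read count per call, so genes inside the same call share their value, and the 42 windows drew on 8 regions. Highest were Hist1h4f and Hist1h1d, an H4 and an H1 gene side by side in cluster C, at 2.67 (percentile 99.9), followed by Hist1h1c and 8 neighbours of cluster D at 2.27. Lowest were Hist1h4j at 1.08, Hist1h1e at 1.11 and Hist1h1t and Hist1h4c at 1.21. The 42 genes thus lay at percentile 68.1 or higher for H3K27ac, while the 16 with H3K4me3 in all libraries lay at percentile 16.4 or lower for H3K4me3. These percentiles are of unlike measures, read density averaged over a call and the highest fold enrichment of a peak in the window. Input reads gave no like excess, at 1.02 in the WT and 1.01 in the KO over the clusters on the same scale.

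The relative H3K27ac density of the clusters was 1.81 ± 0.0826 in WT and 1.69 ± 0.0259 in KO libraries (SD, n = 3 each), with no overlap (exact permutation p = 0.1). It was lower in all KO than in all WT libraries at 20 of 42 members (47.6%, against 18.9% of all windows) and higher at 0 (against 11.9%). Of the 20, 18 lay in 3 regions. The region from Hist1h3f to Hist1h3e (chr13:23545801-23561000) was at 2.77, 2.86 and 2.81 in the WT and 2.54, 2.51 and 2.54 in the KO. The region from Hist1h3e to Hist1h2be (chr13:23562401-23599800) was at 2.15, 2.10 and 2.13 in the WT and 1.95, 1.92 and 1.96 in the KO. The region from Hist1h1c to Hist1h1a (chr13:23730601-23780800) was at 2.17, 2.21 and 2.31 in the WT and 2.07, 2.03 and 1.96 in the KO. In all 3 every KO library was below every WT library, by small amounts. The count rests on the scaling. With raw reads per kb 1 of 42 members was lower in all KO libraries (6.23% of all windows were), and with reads per kb per read in calls 21 of 42 were, beside 43.0% of all windows.

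In the edgeR quasi-likelihood test with the covered length of each library as an offset, 0 of the 8 regions had a Benjamini-Hochberg adjusted p under 0.05 over 24039 regions, of which 12.8% passed, and DESeq2 also called 0. The log2 fold changes of the 3 regions named were −0.10 ± 0.032 (SE, adjusted p = 0.0640), −0.077 ± 0.025 (SE, adjusted p = 0.0649) and −0.089 ± 0.031 (SE, adjusted p = 0.0828). Their unadjusted p-values were under 0.05, as were those of 6277 of all 24039 regions. Without the length offset 6 of the 8 regions passed, all lower in the KO (11.5% of all regions were). Among regions whose length varied little between libraries and without the offset, 6 of 6 did (26.5% of all regions were lower and 26.4% higher). With the offset and without TMM normalization 3 of the 8 did, the 3 regions named (adjusted p = 0.00294 to 0.00555, 9.27% of all regions were lower and 4.96% higher). Length offset and normalization both decide whether the decrease is called.

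**Figure D5:**
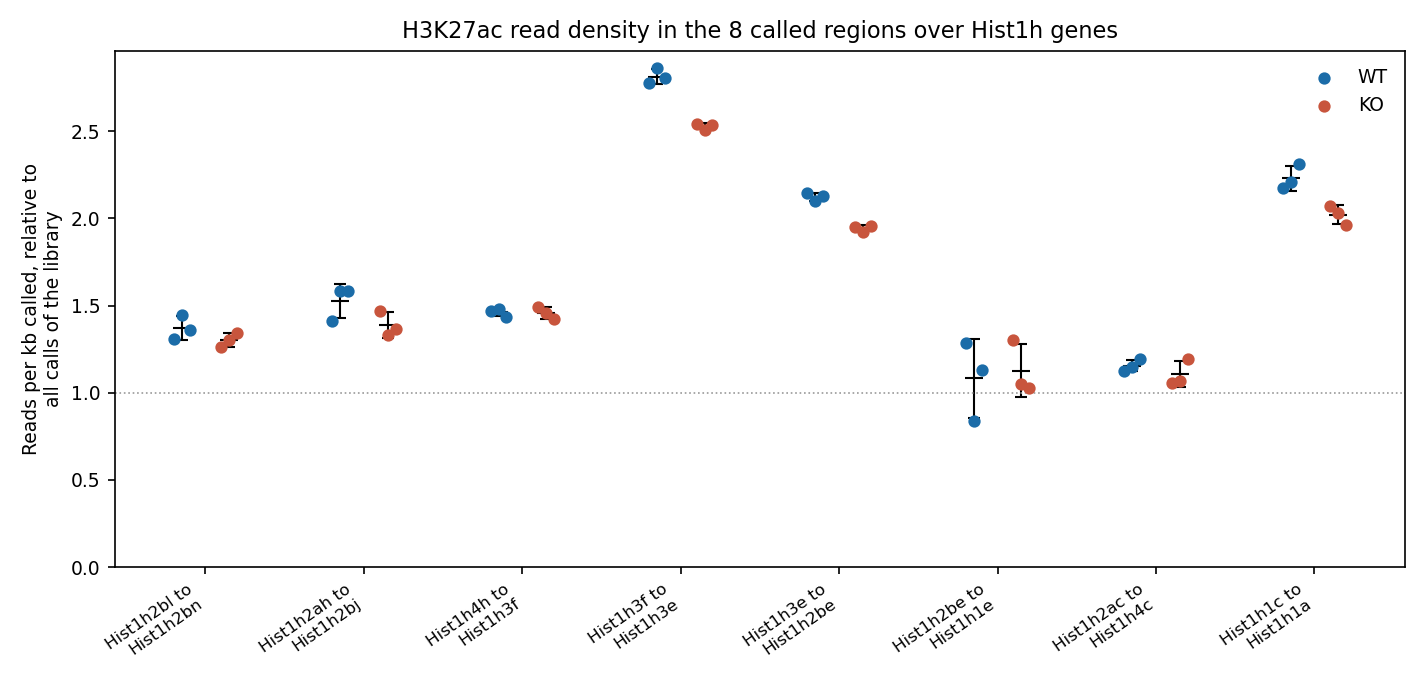
H3K27ac reads per kb of called sequence relative to all calls of the same library, in the 8 called regions that hold Hist1h genes, with points for 3 WT and 3 KO libraries and bars for the mean with SD. The 3 densest regions lie at 1.92 or higher in every library, with the KO below the WT in each of the 3.

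H3K4me1 covered more of the pooled clusters than of the pooled gaps, at a read density near that of an average call. Calls covered 40.7% to 48.7% of the clusters and 17.5% to 20.1% of the gaps, a margin of 25.9 points (SD 2.90, 6 of 6 libraries, exact sign-flip permutation p = 0.031). Here the gap between A and B went the other way, at 69.3% to 77.7%. The gap between B and C was at 11.1% to 13.3% and that between C and D at 0.467% to 6.09%. Cluster A was lowest of the 4 at 13.4% to 21.4%, with its uncalled stretch kept in the length. The KO minus WT difference of the cluster share was −4.16 points, with overlapping libraries (exact permutation p = 0.2). Relative density over the 44 windows had a median of 1.05, at percentile 64.5 of all windows. Hist1h2af was highest at 1.28, before Hist1h2ak and Hist1h2bn at 1.24, and Hist1h4j lowest at 0.835, below Hist1h2ai and Hist1h2ae at 0.863. Density was lower in all KO libraries at 10 of 44 members (22.7%, against 16.3%) and higher at 0 (against 12.3%). Covered length was lower at 4 (9.09%, against 13.7%), which were Hist1h4j, Hist1h4h, Hist1h2af and Hist1h3g. At Hist1h2af it was 2295, 2295 and 2399 bp in the WT and 1895, 895 and 895 bp in the KO, and its H3K4me3 coverage ran the other way, from 399, 935 and 548 bp to 953, 1060 and 1126 bp.

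Of 21 H3K4me1 regions over Hist1h windows, edgeR called 1, where 5.64% of 44625 regions passed. It lay beside the H4 gene Hist1h4j in cluster A (chr13:21726801-21734800). Calls there spanned 5200, 7000 and 7200 bp in the WT and 2400 bp in each KO library, and held 322, 400 and 365 reads against 177, 185 and 181. Thus the KO calls were shorter and held fewer reads, while reads per kb were higher, and with the length offset the log2 fold change was 0.46 ± 0.11 (SE, adjusted p = 0.0223). Without the offset it turned to −0.90. DESeq2 called the same number of member regions. The call was lost on leaving out any 1 of the 3 KO libraries, WT2 or WT3 (adjusted p = 0.0577 to 0.0916 in the edgeR quasi-likelihood test).

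H3K27me3 was called at few Hist1h genes. Calls covered 2.81% to 7.29% of the clusters and 5.03% to 5.72% of the gaps (difference −1.41 points, SD 1.74, exact sign-flip permutation p = 0.09375). The uncalled stretch of cluster A, kept in the length, lowers the cluster share, and the difference without it was not computed. WT3 gave the 7.29%, and the other 5 libraries lay at 4.80% or lower. Only Hist1h2ba and Hist1h2aa, the divergent testis pair beyond cluster D, were called in all 6 libraries, with their whole windows covered. Their relative density was 1.06, 1.08 and 1.23 in the WT and 1.04, 0.968 and 1.05 in the KO, at percentile 56.6 of all windows, and the 2 genes share the value. The 1 region tested there was not called (log2 fold change −0.057 ± 0.091 SE, adjusted p = 0.844, edgeR), where 2.73% of 18809 regions were, and neither an unadjusted p under 0.05 nor DESeq2 called it. The pair had no H3K4me3 and no H3K27ac call in any library. The third testis gene, Hist1h1t, sits inside cluster D among replication-dependent genes. It carried H3K27ac over its window in all 6 libraries at 1.21, H3K4me1 over all its 2912 bp in all 6, and H3K27me3 in WT3 alone.

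The H3K9me3 shares were largest in the gaps between B and C and between C and D. The shares of cluster A and of the pooled clusters keep the uncalled 75.73 kb in their length, which lowers them against the gaps. Calls covered 4.86% to 6.59% of the clusters and 19.2% to 23.8% of the gaps, so the pooled clusters were lower in 6 of 6 libraries (difference −15.6 points, SD 2.26, exact sign-flip permutation p = 0.031). The gap between B and C was covered at 21.6% to 26.8% and that between C and D at 15.6% ± 2.47 in WT and 15.5% ± 1.83 in KO libraries (SD, n = 3 each). The gap between A and B was covered at 2.76% to 3.68%, less than cluster A at 7.76% to 9.37% and cluster C at 4.71% to 7.49%. The gaps were covered at 22.8% ± 1.05 in WT and 19.96% ± 0.737 in KO libraries (SD, n = 3 per genotype, two-sided exact permutation p = 0.1), and over the clusters the libraries overlapped. Only the gap between B and C was lower in every KO library. The KO minus WT difference of the clusters exceeded that of the gaps by 3.35 points (exact permutation p = 0.1). H3K9me3 calls also covered less of the whole genome in every KO library. They covered 205, 207 and 202 Mb in the WT and 186, 172 and 185 Mb in the KO. The shares were not scaled for this, and its part in the gap difference was not tested. The only members called in all 6 libraries were Hist1h2be and Hist1h2bc, H2B genes with long annotated bodies. The call of Hist1h2be (chr13:23589001-23596200) lay within its annotated body, away from the printed promoter. Its relative density was 1.31, 1.32 and 1.45 in the WT and 0.977, 0.867 and 0.770 in the KO, and the groups did not overlap, as at 10.8% of all windows, where every KO library was lower. Its log2 fold change was −0.62 ± 0.12 (SE), with adjusted p = 0.0502 by edgeR, just short of the threshold, where 0.435% of 27342 regions passed. It passed in DESeq2 (adjusted p = 0.00304), with regions of at least 50 reads (adjusted p = 0.0458, edgeR) and without the length offset (adjusted p = 0.0372, edgeR). It did not pass with a replicate block (adjusted p = 0.101), with TMM on reads without length (adjusted p = 0.109) or with any library left out (adjusted p = 0.0713 to 0.195, all edgeR), and every one of these fits gave a lower value in the KO. Relative input density over the clusters was 1.11 in the WT and 1.02 in the KO, and its part in this result was not tested. Hist1h2ba and Hist1h2aa had H3K9me3 calls in 3 WT libraries and in KO1 alone, at a low relative density of 0.483 to 0.545.

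Most neighbours in the gaps were vomeronasal receptor genes with few active marks. None of the 36 Vmn1r genes had an H3K4me3 call in any library, 33 had no H3K27ac call, and 9 had H3K9me3 in all 6 libraries. Of the 7 other gap genes, 6 had H3K4me3 in all 6 libraries. The highest was Abt1, at 13.8, 13.9 and 21.3 in the WT and 21.7, 21.5 and 20.2 in the KO, above every Hist1h gene. No feature over a gap gene was called between the genotypes for any mark, in either direction, with 6 H3K4me3 windows (limma) and 7 H3K27ac, 9 H3K4me1, 3 H3K27me3 and 16 H3K9me3 regions (edgeR) tested. At an unadjusted p under 0.05 there were 3 for H3K4me3, 0 for H3K27ac, 2 for H3K4me1, 2 for H3K27me3 and 1 for H3K9me3. Over all features, in the same order, 4551 of 13002, 6277 of 24039, 8300 of 44625, 2723 of 18809 and 2771 of 27342 were.

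Among the 29 other histone genes, 12 had H3K4me3 calls in all 6 libraries and 16 in none. The 10 Hist2h genes, the smaller replication-dependent group, were all among the 16. Unique words were counted only over the Hist1 span, so whether reads could be placed at the Hist2h genes was not checked. H3f3b, a replacement histone gene (H3.3), had higher enrichment than every Hist1h gene, at 15.8, 17.1 and 19.7 in the WT and 21.8, 14.6 and 18.7 in the KO. It is 1 example, and the replacement genes were not compared as a group. In limma 2 of the 12 were called, where 21.0% of all windows were. 1 rose, Cenpa, the centromeric H3 (log2 fold change 0.64 ± 0.19 SE, adjusted p = 0.0258), and 1 fell, Hist3h2a (−0.75 ± 0.21 SE, adjusted p = 0.0179).

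Genes for the factors that transcribe histone genes and process their mRNAs moved both ways. Of 23 listed, 22 were tested for H3K4me3 and limma called 4 higher and 6 lower in the KO, where 21.0% of all windows were called. Hinfp, which encodes a transcription factor of H4 genes, fell most, from 22.5, 21.6 and 24.8 in the WT to 8.20, 9.20 and 8.15 in the KO (log2 fold change −1.52 ± 0.16 SE, adjusted p = 7.01e-05). Npat, which encodes the organiser of the histone locus body, was at 18.5, 14.8 and 18.0 in the WT and 9.15, 12.5 and 15.0 in the KO, with KO3 just above WT2 (−0.59 ± 0.17 SE, adjusted p = 0.0225). Yy1 (−0.70), Coil (−0.67), E2f1 (−0.60) and Cpsf3 (−0.49) also fell. Casp8ap2, whose product FLASH acts with NPAT, rose from 7.77, 9.85 and 9.09 to 15.4, 14.5 and 17.0 (0.73 ± 0.18 SE, adjusted p = 0.010). Upf1 (0.92), Sympk (0.82) and Eri1 (0.59), which act in histone mRNA processing or decay, rose too. Slbp, the stem-loop binding protein, was at 9.81, 10.4 and 11.5 in the WT and 17.0, 15.5 and 12.5 in the KO and was not called (0.41 ± 0.18 SE, adjusted p = 0.119). Of 9 histone chaperone genes 0 were called higher and 1 lower, Nap1l4 (−0.49 ± 0.17 SE, adjusted p = 0.0466).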

How the data were processed

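ChIP-seq of 5 histone marks was compared in 3 IκBα-WT and 3 IκBα-KO clones per mark (30 libraries), and 8 inputs entered only through the deposited lists. Per the labels and the study's methods, the authors trimmed 50-base reads (Trim Galore 0.6.6), aligned them to GRCm38 (Bowtie2 2.4.4), kept uniquely mapped reads of mapping quality 20 or more, with duplicates marked and blacklisted sequence dropped. The aligner of H3K27ac and the whole processing of H3K9me3 are not given in the sources used here. The labels name the H3K4me1 antibody also for H3K27ac, whereas the methods name another.

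For H3K4me3 the authors deposited MACS2 2.2.7.1 peaks with fold enrichment, a ratio of ChIP over input, and −log10 p and q values, and no counts. The study's methods give a narrow range of sequencing depth over the H3K4me3 samples, and not the depth of each library. For the other marks they deposited epic2 (SICER 0.0.52) calls in 200 bp steps, each with its ChIP and input read counts, and with a p-value, an FDR and a log2 fold change. Lists were called per library with 1 input per genotype.

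Windows were gene bodies with 1 kb either side. Epic2 reads were summed per merged region called in all 6 libraries and tested with edgeR 4.0.16 (R 4.3.3) in a quasi-likelihood fit, with TMM and the log of covered length as offset. H3K4me3 was tested with limma 3.58.1 on log2 of the highest fold enrichment, each library centred on its median. Adjusted p-values are Benjamini-Hochberg over all features, with a threshold of 0.05. SEs for edgeR are the log2 fold change over the root of F. Shares per library were tested by exact permutation, two-sided. The p-values measure the spread between libraries, which holds the differences between clones and between preparations together. Libraries of a genotype shared an input, so a difference between the inputs is not part of that spread. Calls of each library were counted as they stand, and reads are not independent molecules. The scripts were tested on simulated data. Intervals and figures used Python 3.11.15, numpy 2.4.6, pandas 2.3.3 and matplotlib 3.10.9.

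Named genes were the 3 highest and 3 lowest members per mark among those called in all 6, members past the threshold, members called in 3 libraries of one genotype and 0 of the other, members never called for H3K4me3 or H3K27ac, and the 3 testis genes. Other genes with values were named after they were seen. Members and lists were chosen with earlier results of these data known. The p-value, FDR, log2 fold change and score columns of the deposited files were not used beyond the stricter thresholds tried. Alternatives were other normalizations, filters, windows, chaining distances and thresholds, and each library left out in turn.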

Additional observations from a re-analysis of the deposited data

Results flagged for a closer look

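The KO minus WT change of the H3K4me3 covered share differed between the pooled Hist1 clusters and the pooled gaps between them by 2.51 percentage points (two-sided exact permutation p = 0.1, the smallest p that 3 against 3 libraries can give). All 3 KO libraries lay above all 3 WT libraries in the clusters and below them in the gaps, which is what drew attention to it. The difference of 2.51 did not pass 0.05 and could not have.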

How the results depend on the processing

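Counts of members called changed with the treatment of call length. For H3K4me3, 0 of 16 members became 4 with fold enrichment times covered bases and 4 with windows called in any library, where a missing call counts as 0. For H3K27ac, 0 of 8 regions became 3 without TMM, 5 with TMM on reads without length, which moved the median of all regions to −0.13, 6 without the length offset and 6 with regions of like length. The H3K27ac windows lower in all KO libraries went from 20 to 1 with reads per kb not scaled. Over all H3K27ac regions, 1968 were called higher and 1097 lower, against 1193 and 2228 without TMM and 721 and 4459 with TMM on reads without length. For H3K4me1, 1 of 21 regions was called, higher in the KO, where 1784 of all 44625 were. With regions of like length 3 of 11 were called, lower in the KO, where 2191 of all 10959 were lower. Without the length offset 1 of 21 was called lower, where 4070 of all 44625 were. With a library left out 0 to 1 was called, where 1248 to 1335 of all regions were called higher. The H3K4me1 log2 fold change at Hist1h4j, 0.46, became −0.90 without the length offset. For H3K9me3, 0 of 3 regions became 1 with DESeq2, 1 with at least 50 reads in every library and 1 without the offset, each lower in the KO. Of all regions, 160 of 27342, 80 of 26548 and 956 of 27342 were called lower in these fits. The cause was not tested for any of these.

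Cluster minus gap margins kept their direction with any library left out, from 2.10 to 2.77 points for H3K4me3, 43.0 to 43.9 for H3K27ac, 25.2 to 26.6 for H3K4me1 and −16.2 to −15.1 for H3K9me3, where 5 libraries cannot pass 0.05. The H3K27me3 margin became −4.59 with genes chained at 20 kb (exact sign-flip permutation p = 0.031). Differences between the genotypes that no test called also changed sign. The H3K27ac margin, KO minus WT, was −1.40 at an FDR under 0.01 and −0.753 to 1.49 with a library left out, and the H3K27ac cluster share was 0.604 over member windows only. The H3K27me3 margin, KO minus WT, was 0.270 at an FDR under 0.01 and −0.878 to 1.31 with a library left out, the H3K27me3 cluster share −1.24 to 1.00, and the H3K9me3 cluster share −0.445 over member windows only. The cause was not tested here either.

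Samples of the same replicate number showed little shared deviation over all features (correlations from −0.0163 to 0.0262), and they were not treated as pairs. Samples of unlike number were not compared, so the check cannot decide whether the numbers pair them. With a replicate block, edgeR and limma called 0 members for H3K4me3, H3K27ac, H3K27me3 and H3K9me3 and 1 for H3K4me1, as without it. The study gives the sequencing depth of H3K4me3 as a range over samples and not per library. A missing peak there does not show that the mark is absent.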
